A study of Mus musculus with 12 samples.

Results

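Iron uptake, storage and sensing was followed through 9 genes picked by symbol from a table of 21671 genes: Tfrc, Slc11a2, Slc40a1, Fth1, Ftl1, Ireb2, Aco1, Ncoa4 and Steap3. All 9 were found. They were picked with their responses in these data already known, so what each did against untreated cells is given as a description, without a test. The cells were 3T9 MycER;YAP, a line of immortalized mouse embryonic fibroblasts. All of them carry MycER, a Myc protein that works only when 4-hydroxytamoxifen (OHT) binds it, and a vector that makes the activated mutant YAP S127A when doxycycline is added. According to the study's methods, the cells were starved of serum and confluent when treated. Of the 12 RNA-seq libraries, 3 came from untreated cells (CTRL), 3 from cells given 400 nM OHT, 3 from cells given 2 µg/mL doxycycline (DOX) and 3 from cells given both (OHT DOX). Time of treatment and separate cultures are not named in the labels, so the spread between libraries may be technical. Cells without the constructs given either drug are not analysed here, and an effect of a drug itself cannot be told apart from that of MycER or YAP S127A.

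Cells take up iron bound to transferrin through the transferrin receptor, reduce it in the endosome and move it to the cytosol. Ferritin stores what is not used, and ferroportin exports it. In iron-poor cells, iron regulatory proteins bind iron-responsive elements, short hairpins in mRNA. Binding in the 5′ UTR blocks translation, as for ferritin and ferroportin, and binding in the 3′ UTR of the transferrin receptor mRNA protects it from decay. RNA-seq reads measure mRNA level only, so translational control and protein level are outside these measurements.

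The iron-responsive elements are shown because they tie the uptake, storage and export genes to the iron regulatory proteins. A search of GENCODE M21 mouse transcripts (build GRCm38) looked for a bulged C, a stem of 5 base pairs (G with T allowed) and a loop of 6 bases, CAGTG followed by any base but G. It found 7 such hairpins in 4 of the 9 genes, while 222 of 21877 protein-coding genes (1.01%) held at least 1. Each is printed over 30 bases as DNA, 5′ to 3′ on the mRNA strand, with the loop in capitals.
Fth1, 5′ UTR, chr19:9982732-9982761, plus strand: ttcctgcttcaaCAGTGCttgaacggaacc
Ftl1, 5′ UTR, chr7:45459778-45459807, minus strand: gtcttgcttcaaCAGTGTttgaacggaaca
Slc40a1, 5′ UTR, chr1:45925464-45925493, minus strand: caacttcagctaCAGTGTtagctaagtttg
Tfrc, 3′ UTR, chr16:32631219-32631248, plus strand: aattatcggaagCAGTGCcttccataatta
Tfrc, 3′ UTR, chr16:32631598-32631627, plus strand: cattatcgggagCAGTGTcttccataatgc
Tfrc, 3′ UTR, chr16:32631663-32631692, plus strand: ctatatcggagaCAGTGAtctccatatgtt
Tfrc, 3′ UTR, chr16:32631710-32631739, plus strand: aattatcgggaaCAGTGTttcccataattt
Fth1, Ftl1 and Slc40a1 held 1 element each, all in the 5′ UTR, and Tfrc held 4, all in the 3′ UTR. This strict search found none in Slc11a2, Ireb2, Aco1, Ncoa4 or Steap3, which says only that these letters and this stem are not in their listed transcripts. The promoter letters bound by Myc (CACGTG) and by TEAD (GGAATG) were also searched on both strands, from 250 bases before to 50 after each start in RefSeq. They were in 0 of the 14 windows found for 7 of the genes, beside 7.15% and 14.7% of all 32851 windows. With so few windows this does not set the genes apart. The 7 genes were not recorded by name, so nothing follows for any single gene, Tfrc and Slc40a1 included. Letters outside these windows were not searched.

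For each gene the table gives 3 pooled means, each over 6 libraries: CTRL with OHT, CTRL with DOX, and CTRL with OHT DOX. They are in normalized counts, reads divided by a library's size factor. As the CTRL libraries are the same in all 3, the gap between a pair of pooled means, doubled, is the gap between the means of the treated groups. The ratio of pooled means is drawn toward 1 by the shared CTRL libraries, so it understates the ratio of the treated groups. Genes with pooled means under 100 could also be solved for the whole reads of each library. This was done for 8558 genes, among them Slc40a1 and none of the other 8 genes. For those 8 there is no value per library, no replicate error of their own and, apart from bounds, no level against CTRL. Size factors of the 12 libraries lay between 0.831 and 1.158, and total reads are unknown. No library stood apart from its own group: over the solved genes, the mean correlation of a library with it was 0.883 to 0.905. With other groups the mean correlation was 0.765 to 0.828. The deepest OHT DOX library had the lowest value there, beside 0.828 and 0.806 for the other OHT DOX libraries. Of 6 fibroblast markers, Col1a1, Col1a2, Col3a1, Pdgfrb and Vim had pooled means of 2570 to 6146, while Thy1 was at 0.344 to 0.491. Of 4 erythroid markers in the table, Hbb-b1 (hemoglobin) was listed at 0, but Epor was at 48.5 to 57.8 and Alas2 at 36.8 to 38.1. Of 5 macrophage markers, Cd68 was at 37.3 to 41.1 and Csf1r at 4.96 to 6.04, with Ptprc below 1. All 4 epithelial and all 4 endothelial markers were below 4. The summed level of the erythroid list was 87.9 to 96.1 and that of the macrophage list 44.5 to 47.9 in the 3 comparisons, and their part in the results was not tested.

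Tfrc (chr16:32608920-32632794 in GRCm38, plus strand), the transferrin receptor through which cells take up iron, had the largest ratios of the 9 genes wherever a group given OHT was set against DOX alone. Its pooled mean was 1314 normalized counts for CTRL with OHT, 716 for CTRL with DOX and 1577 for CTRL with OHT DOX. Both comparisons that contain OHT were therefore high and the comparison with DOX alone was low. The OHT libraries averaged 1197 normalized counts more than the DOX libraries. The ratio of pooled means was 1.84 (0.88 on the log2 scale), larger in size than for 99.5% of 12078 genes. The OHT DOX libraries averaged 1723 more than the DOX libraries, with a ratio of pooled means of 2.20 (log2 1.14), larger in size than for 99.8% of 12057 genes. No test was possible on these pooled values, but in both comparisons the cells with active MycER held more Tfrc mRNA than the cells with YAP S127A alone, whether or not YAP S127A was also induced.

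The difference in Tfrc was smaller between OHT DOX and OHT. The OHT DOX libraries averaged 526 normalized counts more than the OHT libraries, and the ratio of pooled means was 1.20 (log2 0.26), larger in size than for 96.2% of 12086 genes. Depending on the unknown CTRL level, this stands for a ratio of the group means between 1.20 and 1.44. A yardstick for the error came from the 725 solved genes with means of 50 to 100, whose libraries varied within a group, beyond counting noise, with a coefficient of variation of 0.115. If Tfrc, at a higher level, varied as much, and with the treated means taken at the highest values the pooled means allow, the standard error of its differences would be at most 202 for OHT against DOX, 233 for OHT DOX against DOX and 276 for OHT DOX against OHT. The first difference is then at least 5.94 and the second at least 7.40 times its standard error. For OHT DOX against OHT it is at least 1.91 times, and 3.69 times with the CTRL level at the highest value allowed. Whether doxycycline on top of OHT moved Tfrc beyond the spread of replicates was therefore not settled by these pooled values.

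The pooled means also bound the untreated level. As the DOX mean cannot be below 0, the CTRL libraries averaged at most 1431 normalized counts of Tfrc. The OHT libraries averaged at least 1197 and the OHT DOX libraries at least 1723, which puts OHT DOX at least 1.20-fold above CTRL. For OHT alone the bound (0.837-fold) leaves the direction unsettled, and for DOX there is no bound above 0. In the pair of log2 ratios OHT against DOX and OHT DOX against OHT, the nearest of 9542 genes to Tfrc were Pdxp, which encodes pyridoxal phosphatase, at a distance of 0.0588, Uhrf1, a factor that maintains DNA methylation, at 0.0796, and Rragb, a Rag GTPase of amino acid sensing, at 0.0883.

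**Figure D1:**
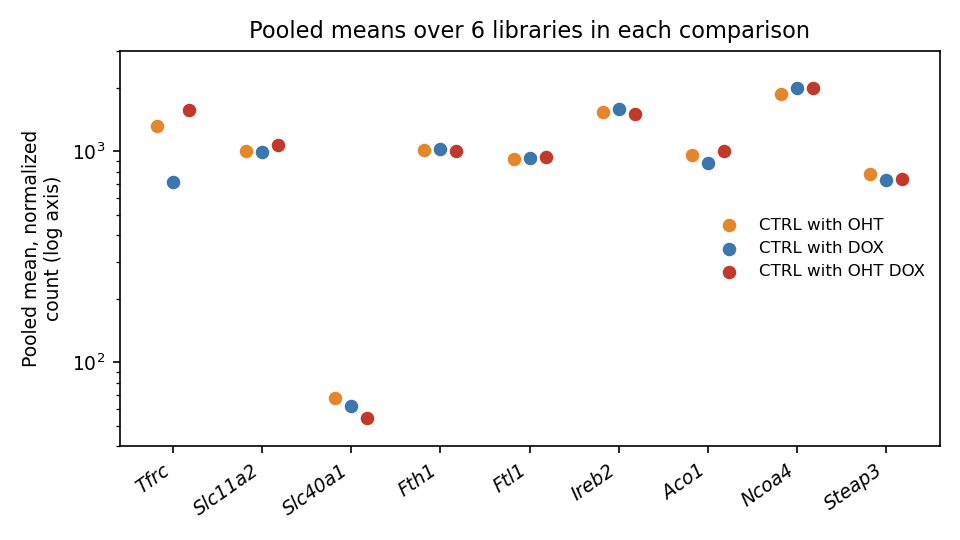
Pooled mean of each of the 9 genes over 6 libraries (vertical log axis, normalized counts) in the comparisons of CTRL with OHT, DOX and OHT DOX, with no error since these are single pooled values. The Tfrc points spread from 716 to 1577, while those of Fth1 and Ftl1 nearly coincide; levels are not per length and cannot be compared between genes.

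Slc40a1 (chr1:45908068-45926523 in GRCm38, minus strand), which encodes ferroportin, the exporter of iron, was lower in every treated group than in CTRL, with its lowest values in cells given both agents. The CTRL libraries held 80.8, 81.5 and 94.3 normalized counts. The OHT libraries held 43.2, 68.5 and 39.7. The DOX libraries held 36.7, 42.4 and 38.1, and the OHT DOX libraries 24.6, 27.0 and 20.2. Every treated library was below every CTRL library, and every OHT DOX library was below every library given a single agent, whereas the OHT and DOX libraries overlapped. These values rest on 19 to 90 reads a library.

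The mean was 85.5 ± 7.60 (SD, n = 3) in CTRL, 50.5 ± 15.8 in OHT, 39.1 ± 2.95 in DOX and 23.9 ± 3.42 in OHT DOX. Relative to CTRL this was 0.590, 0.457 and 0.279. Of the 2351 solved genes with a mean of at least 10, 14.7% were likewise lower than CTRL without overlap in OHT, 17.8% in DOX and 25.1% in OHT DOX. In OHT DOX, 12.7% were lower than OHT and 13.4% lower than DOX without overlap. Each of these separations was thus common among the 2351 genes, and the share of genes with all of them was not computed. The values against CTRL are a description. On the log2 scale, the change with both agents differed from the sum of the single changes by 0.09 (95% interval -0.51 to 0.69). The interval spans both directions, and limma called 0 of the 2351 genes in this contrast. It uses the values against CTRL, known when the gene was picked, so it is a description too.

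Between treated groups, Slc40a1 was lower in OHT DOX than in OHT by a log2 difference of -1.03 (SE 0.20, limma adjusted p = 0.00732) and lower than in DOX by -0.70 (SE 0.20, limma adjusted p = 0.0235). Genes called lower made up 1.02% and 4.98% of the 2351 tested. The 47 genes called in either direction between OHT DOX and OHT, on which the first share rests, ranged from 13 to 70 when single libraries were left out, with 13 without the deepest OHT DOX library and 17 without either of the shallower OHT libraries. OHT and DOX alone were not told apart (log2 difference 0.32, 95% interval -0.098 to 0.75, limma adjusted p = 0.349, in a contrast where 13.3% of genes were called). Both calls depended on single libraries: the first was lost without the highest OHT library (-0.79, limma adjusted p = 0.0724). The second was lost without either of a pair of DOX libraries (-0.65, adjusted p = 0.0776, and -0.72, adjusted p = 0.0644, limma) or the lowest OHT DOX library (-0.59, limma adjusted p = 0.103). The difference remained negative in each of these fits. As the gene was picked with its responses known, these p-values are not independent of that choice.

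**Figure D2:**
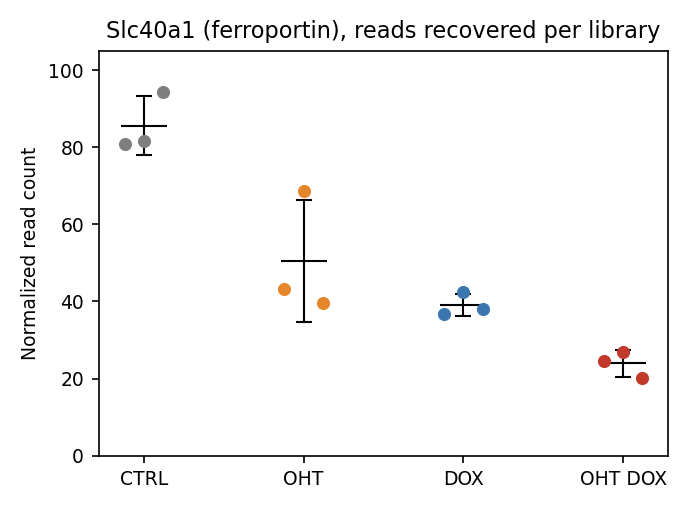
Normalized read count of Slc40a1 in each of the 12 libraries (points), with the mean (wide bar) and SD (n = 3) of each group. The CTRL libraries sit between 80.8 and 94.3 and the OHT DOX libraries between 20.2 and 27.0, with no overlap with any other group.

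The pooled means of the ferritin subunits were nearly alike, which would not reveal a change common to all 3 treatments. Fth1, the heavy subunit that oxidizes iron for storage, had pooled means of 1016 with OHT, 1027 with DOX and 1010 with OHT DOX. Ftl1, the light subunit, had 923, 934 and 938. Over the 3 comparisons, the highest pooled mean was 1.73% above the lowest for Fth1 and 1.63% for Ftl1. Both genes have near-identical pseudogene copies in the mouse genome, and the handling of reads shared with them was not stated, so their levels are uncertain.

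The pooled means of the iron sensors were also close to each other. Ireb2 encodes iron regulatory protein 2, which is degraded when iron is plentiful, and had pooled means of 1540, 1594 and 1501 with OHT, DOX and OHT DOX. Aco1 encodes iron regulatory protein 1, which is the cytosolic aconitase when it holds an iron-sulfur cluster. It had 960, 885 and 1000, the widest of the genes besides Tfrc and Slc40a1. Its OHT DOX libraries averaged 229 normalized counts more than the DOX libraries, at least 1.27 times the standard error by the same yardstick. As the largest possible error was used, this is a lower limit and does not show whether the difference exceeded the spread of replicates.

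Of the remaining genes, Slc11a2, the transporter that moves iron out of the endosome, had pooled means of 1005, 995 and 1069. Steap3, the endosomal ferrireductase that prepares iron for it, had 782, 731 and 743. Ncoa4, the receptor that delivers ferritin to the lysosome, had 1866, 1998 and 1991. In these 7 genes other than Tfrc and Slc40a1, the 21 differences between treated groups were at most 1.27 times the largest standard error each could have, again a lower limit on their size against the spread. Their ratios of pooled means lay between 0.934 and 1.13. Such a comparison cannot show that the genes did not respond, because a change common to all 3 treatments leaves the pooled means alike.

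A log2 ratio of pooled means past 0.32 in either direction was counted as a difference. In OHT against DOX, 1 of the 9 genes, Tfrc, lay past it, where 6.76% of all genes tested did. It was also the 1 gene past it in OHT DOX against DOX, beside 7.09% of all genes, and 0 of the 9 were past it in OHT DOX against OHT, beside 2% of all genes. With the pooled means as deposited or rescaled to equal sums over all genes, Slc40a1 passed it there: its log2 ratio of -0.31 falls just short of the threshold on the scale used here. The median log2 ratio of the 9 genes was 0.014 in OHT against DOX, 0.0234 in OHT DOX against OHT and 0.00639 in OHT DOX against DOX, beside 0.0105, -0.000995 and -0.00173 over all genes.

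**Figure D3:**
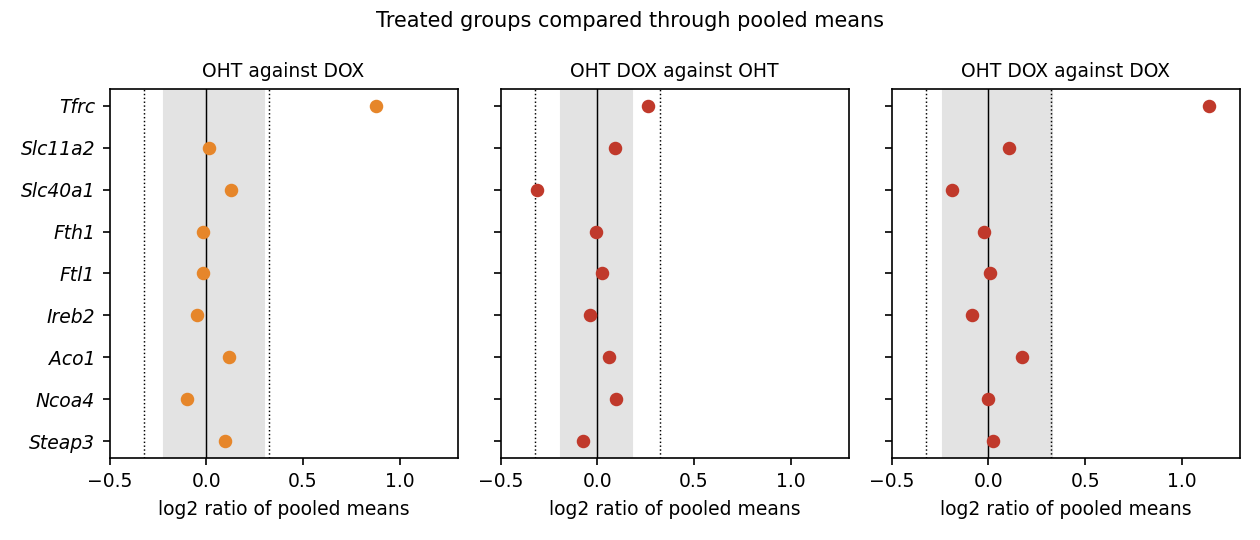
Log2 ratio of pooled means for each of the 9 genes (horizontal axis) in the 3 comparisons between treated groups; grey bands hold the middle 90% of all genes tested and dotted lines mark a log2 ratio of 0.32 in either direction. Tfrc lies at 0.88 and 1.14 in the comparisons with DOX, far outside the band, and in OHT DOX against OHT Tfrc (0.26) and Slc40a1 (-0.31) lie outside it on opposite sides.

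A further 33 genes of iron handling, among them transferrin, haem enzymes, iron-sulfur cluster genes and other reductases, were listed for comparison, and 31 were in the table. In each comparison 22 of them had enough reads to be tested. Of these, 1 passed that threshold in OHT against DOX, 1 in OHT DOX against OHT and 0 in OHT DOX against DOX, and in both cases it was Steap1. The median log2 ratio of the 22 was 0.0174, 0.00473 and -0.00707.

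Steap1, a plasma membrane member of the Steap family, was higher wherever doxycycline was given. It had 56.9, 69.7 and 57.6 normalized counts in CTRL and 73.4, 48.1 and 49.3 in OHT. The DOX libraries held 145.0, 143.7 and 113.4, and the OHT DOX libraries 153.3, 112.8 and 115.9. The doxycycline libraries did not overlap those without it. Of the 2351 genes, 8.21% were higher in DOX than in CTRL without overlap and 4.51% higher in OHT DOX than in OHT. Steap1 was higher in DOX than in CTRL by 1.12 on the log2 scale (SE 0.17, limma adjusted p = 0.000558), where 1.06% of the 2351 genes were called higher. In OHT DOX it was higher than in CTRL by 1.04 (SE 0.17, limma adjusted p = 0.000106), where 11.3% were called higher. It was higher in OHT DOX than in OHT by 1.17 (SE 0.17, limma adjusted p = 0.000348), where 0.978% were called higher. The difference of OHT from CTRL was -0.13 (limma adjusted p = 0.675), and that of OHT DOX from DOX -0.08 (limma adjusted p = 0.823). Steap1 stood out from its list by its ratios in these same libraries, so these p-values are not independent of that choice.

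Hfe, the hemochromatosis protein, Steap4, a reductase, and Tmprss6, a membrane protease, were also solved per library and above the minimum. They passed the limma test in none of the contrasts between groups.

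Among the genes of the list that could not be solved per library, Nfs1, the cysteine desulfurase of iron-sulfur cluster assembly, had pooled means of 457 with OHT, 387 with DOX and 461 with OHT DOX. Its differences from DOX were at least 1.70 and 1.79 times their standard error. Hmox1, the haem oxygenase that frees iron from haem, had 515, 598 and 543, with a difference of -165 normalized counts for OHT minus DOX, which is -1.53 times the largest standard error it could have. Slc25a37, a mitochondrial iron importer, had 531, 498 and 564, and Glrx5, a glutaredoxin of iron-sulfur clusters, had 326, 322 and 364. For these genes the yardstick gives lower limits only, so it does not show which differences lay within the spread of replicates.

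**Figure D4:**
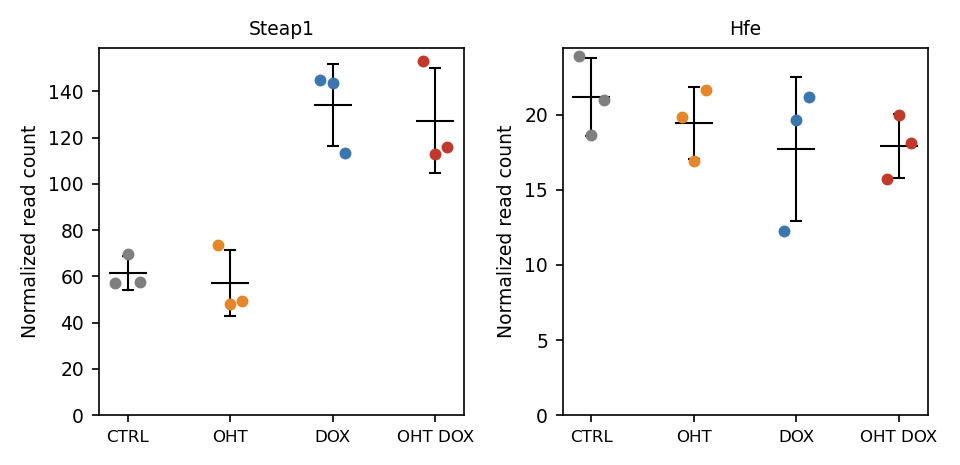
Normalized read count per library (points), mean (wide bar) and SD (n = 3) of Steap1 and Hfe in the 4 groups. Steap1 lies at 112.8 or more in every library given doxycycline and at 73.4 or less in the others, while the groups overlap for Hfe.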

How the data were processed

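Total RNA of 12 libraries was prepared with a TruSeq kit without poly-T selection. Per the labels, the authors used TopHat2 2.0.8, SAMtools, featureCounts 1.4.5-p1 and DESeq2 with build mm9; neither the annotation nor the counting of strand and shared reads was stated. The deposited table gives, for each treated group with CTRL, a mean of normalized counts over 6 libraries, normalized by the authors separately for each comparison. It also holds the authors' fold changes, adjusted p-values and calls, which were not used. Total reads per library are unknown.

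The pooled means were put on a common scale through the CTRL libraries (factor 0.979 in the OHT comparison, 0.999 in the DOX comparison). Genes needed a pooled mean of at least 10 in both comparisons, and a log2 ratio past 0.32 was counted. The means are printed to 10 significant digits and are sums of whole reads times fixed weights per library. Lattice reduction (sympy 1.14.0, numpy 2.4.6, numba 0.67.0) recovered the reads of all 8558 genes under 100 in every comparison. The search found 1 solution for 8552 of them, and for the others the far more plausible was kept. The largest misfit was 0.566 of the last printed digit. These reads are a reconstruction, and the method was tested on simulated data. Libraries within a group are told apart by size factor only and carry no replicate number.

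Solved genes with a mean of at least 10 (2351) were tested with limma 3.58.1 (R 4.3.3, trend) on log2(normalized count + 0.5), a scale that understates changes of low genes, with the 4 groups in 1 fit and Benjamini-Hochberg adjustment at 0.05. The planned edgeR test was not run, as the table holds no counts per library. Every gene of iron handling with a value given was a member, among the 3 on the list of 33 with the largest ratio in a comparison, or a solved gene of that list, of which 1 is not reported here; the 3 genes nearest Tfrc were added, among genes with pooled means of at least 100. The members and lists were chosen with earlier results of these data known. Alternatives were other scalings, minimums and ratios, planned beforehand, and other pseudocounts, minimums and left-out libraries for the solved genes, added later.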

Additional observations from a re-analysis of the deposited data

How the results depend on the processing

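The other scalings shifted the median log2 ratio over all genes by between -0.0307 and 0.0287. That is too little to reverse the Tfrc ratios of 0.26, 0.88 and 1.14, so their kept direction adds no support. Other settings moved the counts. Genes past the ratio in OHT against DOX numbered 816, against 3011 with no minimum above 0, 395 with a minimum of 100, 3327 past 1.1-fold and 182 past 1.5-fold. In OHT DOX against OHT they numbered 242, against 2385, 100, 2263 and 22, and in OHT DOX against DOX 855, against 3091, 463, 3899 and 174. Of the 9 genes, 1 passed in OHT DOX against OHT with the pooled means as deposited and 1 with equal sums, against 0, and 2 passed there at 1.1-fold; 3 passed in OHT DOX against DOX at 1.1-fold. With single libraries left out, in fits chosen after seeing the data, the log2 difference of Slc40a1 ran from -1.18 to -0.79 for OHT DOX minus OHT, from -0.79 to -0.59 for OHT DOX minus DOX and from 0.08 to 0.47 for OHT minus DOX. The difference of Steap1 in OHT DOX minus DOX, near 0, ran from -0.22 to 0.0012 and changed sign without an OHT DOX library (0.0012). Over the left-out libraries, genes called ran from 21 to 102 in DOX minus CTRL, beside 57, from 13 to 70 in OHT DOX minus OHT, beside 47, from 181 to 339 in OHT minus CTRL, beside 285, and from 192 to 319 in OHT DOX minus DOX, beside 299. No paired analysis was possible because the table holds no column per library and the recovered libraries carry no replicate number. Count-based tests such as edgeR, planned only for a table with counts per library, were not run on the recovered reads.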
